A study of Mus musculus with 12 samples.

Results

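CD8+ T cells read antigen through the T cell receptor, and further signals decide how far the response goes. CD134 (OX40) and CD137 (4-1BB) are receptors of the tumour necrosis factor receptor family that appear on T cells after antigen is seen, and antibodies that trigger them are used experimentally to drive expansion and effector function. The 27 genes described here had a profile in which the level after antigen alone (Ag) stood close to that of naive cells and the level after antigen with costimulation (Ag+Costim) stood well above both.

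The genes were chosen on their measured levels. For each library the count of a gene was divided by the library total and given as CPM (counts per 1000000), and the levels were averaged within a group. A gene was taken if it was annotated as protein coding, had an Ag+Costim mean of at least 10 CPM that was at least 4 times both other means, and had an Ag mean less than 1.5 times above or below the Naive mean. Histone genes, Il2ra, Il12rb2 and Lmnb1 were left out by name, which removed Lmnb1 and Hist1h4d from 29 genes. Of 22028 annotated protein-coding genes, 8121 reached 10 CPM after Ag+Costim, and the 27 genes are 0.332% of those. Because the levels themselves chose the genes, their levels and ratios are given as a description with no test.

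The libraries came from mouse OT-I CD8+ T cells, which carry a transgenic T cell receptor for a peptide of ovalbumin and, by the study's methods, lack a recombination-activating gene (Rag1 or Rag2). The Ag group (5 libraries) and the Ag+Costim group (5 libraries) were OT-I cells transferred into C57BL/6J mice. The mice were then given the peptide with rat IgG in the Ag group, or with agonist anti-CD134 and anti-CD137 antibodies in the Ag+Costim group. The labels give collection after 4 days, and the paper's methods give a slightly shorter time. Both sexes were used, at ages given in the methods as a range in months that is not tied to a library. The Naive group (2 libraries) was untreated OT-I cells that were not transferred, so the effects of transfer and of antigen cannot be told apart between Ag and Naive. Both antibodies were given together in every Ag+Costim mouse, so the receptors cannot be told apart either. All groups were transgenic CD8+ T cells sorted from spleen and lymph nodes, and the labels do not say whether each library is a separate mouse, so p-values measure the spread between these libraries.

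Library totals lay between 24006053 counts in Ag 4 and 49294934 counts, with the next lowest at 40028682. All 7 CD8 T cell markers examined were expressed in every group, and their summed level was 12200 to 12830 CPM in Naive, 9907 to 12680 CPM in Ag and 5227 to 7187 CPM in Ag+Costim. The sum over 6 erythroid markers lay between 588 and 6718 CPM in Ag, between 13.99 and 211 CPM in Ag+Costim and between 168 and 2312 CPM in Naive. That over 7 B cell markers lay between 119 and 178 CPM in Ag, between 41.1 and 85.3 CPM in Ag+Costim and between 31.3 and 34.5 CPM in Naive. The 4 CD4 or regulatory T cell markers summed to 117 to 168 CPM in Ag and 35.5 to 68.0 CPM in Ag+Costim. Of these sums, Ctla4 alone held 111 to 162 and 29.8 to 63.4 CPM. The 4 stroma markers summed to 97.7 to 129 CPM in Ag and 37.8 to 73.7 CPM in Ag+Costim, nearly all from Pecam1. Sums for plasma cells, neutrophils, dendritic cells and platelets overlapped in range between Ag and Ag+Costim. The sum over 8 monocyte or macrophage markers was 32.8 to 65.6 CPM in Naive, 75.9 to 189 CPM in Ag and 84.2 to 187 CPM in Ag+Costim. That over 5 NK cell markers was 36.5 to 61.7 CPM in Ag and 80.0 to 110 CPM in Ag+Costim. Eomes alone held 21.1 to 39.6 CPM in Ag and 76.1 to 107 CPM in Ag+Costim. The NK cell markers Klrb1c, Klra8 and Klra4 went the other way, and Ncr1 overlapped in range. Klrb1c was at 4.88 to 12 CPM in Ag and 0.45 to 2.23 CPM in Ag+Costim. No marker of these lists was at 0 in every library, and their part in the levels below was not tested. In RNA from whole populations, fewer cells that express a gene and less RNA per cell cannot be told apart.

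A profile of this kind was uncommon among the genes that were high after costimulation. Of 496 protein-coding genes with at least 10 CPM and 4 times the Naive mean in Ag+Costim, 446 also had an Ag mean at least 1.5 times that of Naive. Another 42 had an Ag mean within 1.5 times of Naive, and 8 had an Ag mean at most Naive divided by 1.5. Seen from the other side, 302 genes reached 4 times the Ag mean, and 169 of them had an Ag mean at most Naive divided by 1.5. The 27 genes are those within 1.5 times of Naive that met both 4-fold thresholds, less the 2 left out by name.

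For every one of the 27 genes, each Ag+Costim library was above each Ag and each Naive library. The same held for 20.8% of the 8121 genes with an Ag+Costim mean of at least 10 CPM, and since the rule used this contrast, nothing is read from the count. The Ag and Naive libraries overlapped in range for 22 genes and were apart for Mcm4, Rcc1, Wdr62, Kctd17 and Arid3a. The Ag mean was above Naive in 12 genes and below it in 15, with ratios from 0.70 to 1.49. The Ag+Costim mean was 4.05 to 15.4 times the larger of the other means, with a median of 5.17. Between replicates, the median coefficient of variation was 21.1% in Ag+Costim and 35.1% in Ag.

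**Figure D1:**
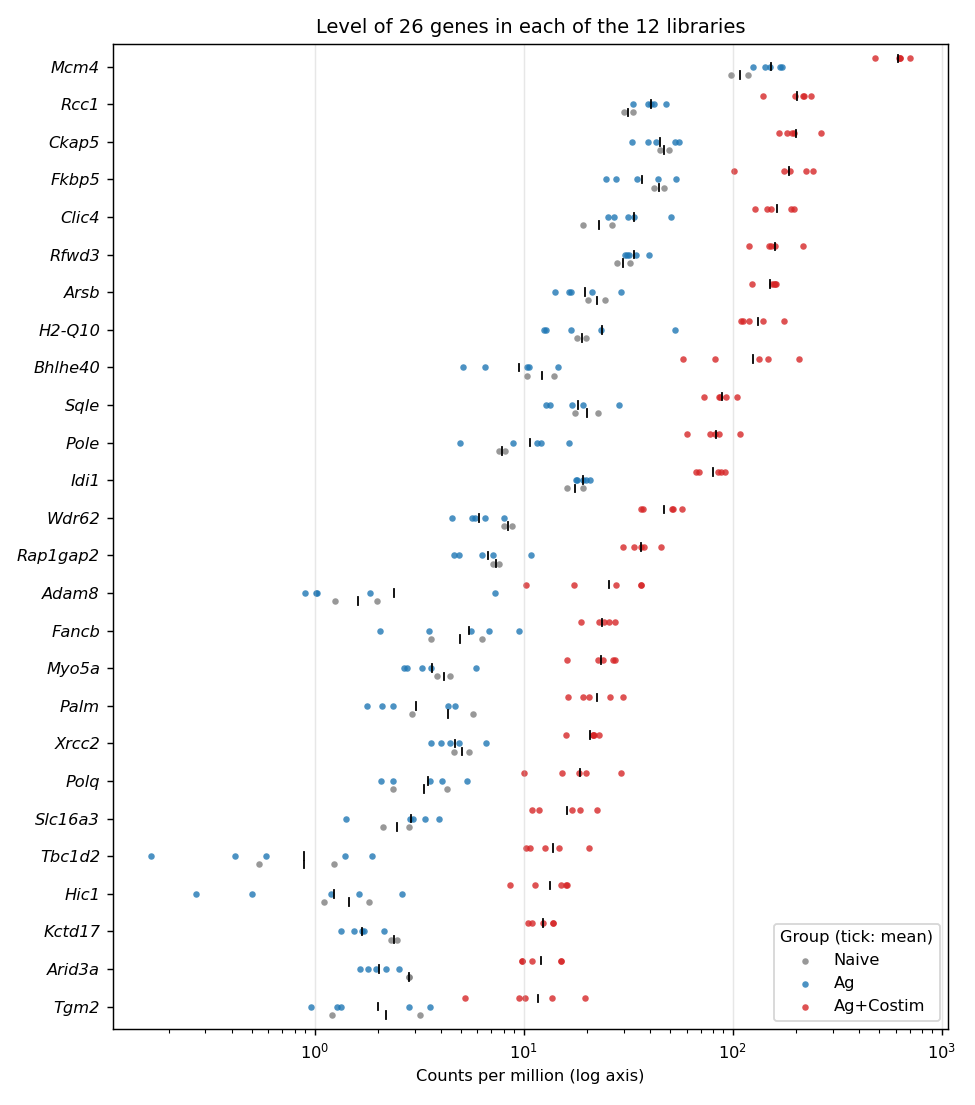
Level of 26 of the 27 genes in CPM (horizontal log axis), 1 dot per library and a tick at the group mean, for Naive (grey, 2 libraries), Ag (blue, 5) and Ag+Costim (red, 5). Red dots lie to the right of all grey and blue dots in every row, from Mcm4 with a mean of 613 CPM down to Tgm2 with 11.6 CPM, and blue and grey dots intermingle in most rows.

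**Figure D2:**
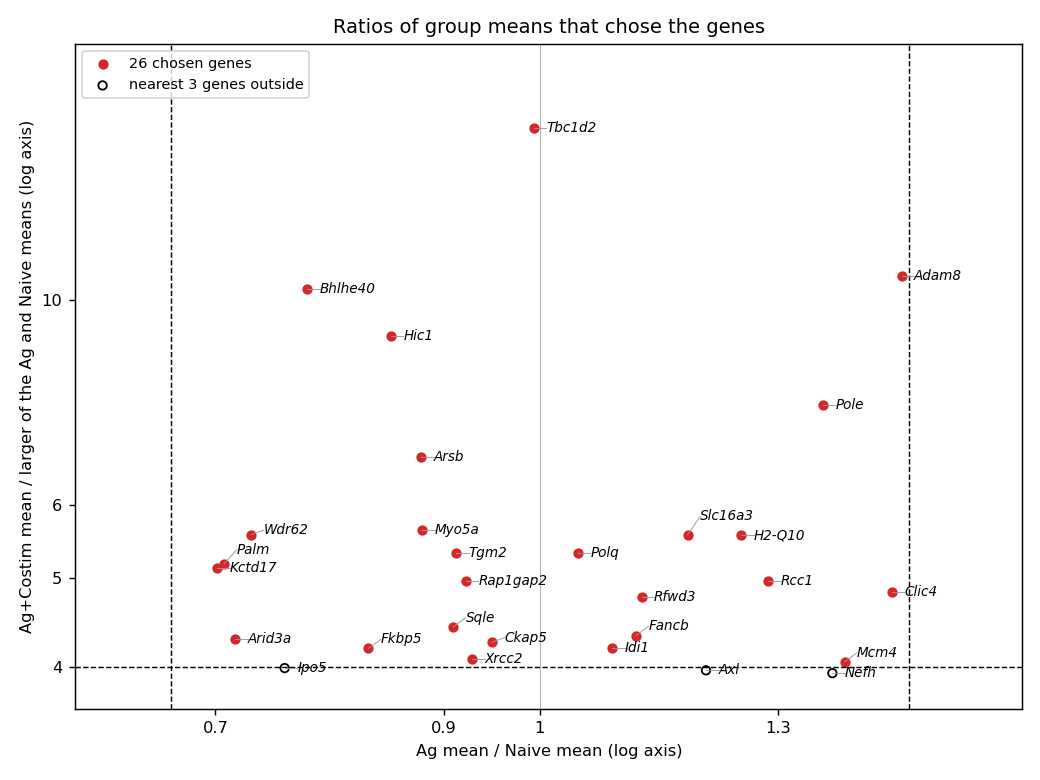
Ratio of the Ag mean to the Naive mean (horizontal log axis) against the ratio of the Ag+Costim mean to the larger of the other means (vertical log axis) for 26 of the 27 genes, 1 dot per gene, with dashed lines at the thresholds of 4, 1.5 and 1 divided by 1.5. Tbc1d2 stands highest at 15.4, Adam8 is nearest to the right-hand threshold at 1.49, and the open circles Ipo5, Axl and Nefh lie just under 4.

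The genes are described by what each is known to do, in groups made after the genes were known. Mcm4, on chr16:15623897-15637400 (gene coordinates are those of GENCODE vM21 on mm10), codes for a subunit of the MCM2-7 helicase that unwinds DNA at the replication fork, and it had the highest level of the 27 genes both in CPM and per transcript length. Its level was 98.0 and 119 CPM in the 2 Naive libraries and 169, 171, 151, 142 and 125 CPM in the 5 Ag libraries. In the 5 Ag+Costim libraries it was 629, 703, 632, 476 and 626 CPM. The Ag libraries thus lay above the Naive libraries by a small margin and the Ag+Costim libraries far above both, with means ± SD of 108 ± 14.6 CPM in Naive, 151 ± 19.2 CPM in Ag and 613 ± 83.3 CPM in Ag+Costim. All means below are given with the SD over the same 2, 5 and 5 libraries where an error follows them. Mcm4 was also the gene nearest to the threshold from inside, at 4.05 times the Ag mean.

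Pole, on chr5:110286306-110337474, codes for the catalytic subunit of DNA polymerase epsilon, which copies the leading strand. It was measured at 8.12 and 7.63 CPM in Naive and 12.03, 11.6, 8.85, 16.4 and 4.95 CPM in Ag, and at 85.7, 109, 77.5, 60.0 and 81.7 CPM in Ag+Costim. The Ag range included the Naive values, and the lowest Ag+Costim library was 3.67 times the highest other library. Polq, on chr16:37011786-37095417, codes for DNA polymerase theta, which joins broken ends through short homologies. Its levels were low, at 4.30 and 2.36 CPM in Naive and 3.57, 4.04, 2.36, 5.33 and 2.06 CPM in Ag, and varied within Ag+Costim at 19.8, 29.0, 18.3, 9.99 and 15.2 CPM. The lowest of these, Ag+Costim 4, was 1.87 times the highest Ag library.

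Further repair genes were Rfwd3, Fancb and Xrcc2. Rfwd3, a ubiquitin ligase that acts on the single-strand binding protein RPA at stalled forks, had means of 29.9 ± 3.03 CPM in Naive, 33.5 ± 3.76 CPM in Ag and 159 ± 35.8 CPM in Ag+Costim. Its Ag values spread little, from 30.4 to 39.6 CPM. Fancb is part of the Fanconi anaemia core complex, which starts the repair of crosslinked DNA. It ranged from 2.04 to 9.46 CPM in Ag, the lowest value being that of the shallow library Ag 4, and from 18.7 to 27.4 CPM in Ag+Costim. Without Ag 4 the Ag mean of Fancb was 6.34 CPM, the ratio of Ag+Costim to Ag fell from 4.32 to 3.74, and the gene no longer met the rule. Xrcc2, which acts in homologous recombination, had 3.59 to 6.62 CPM in Ag and 15.9 to 22.9 CPM in Ag+Costim, and the lowest of the latter was again Ag+Costim 4.

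Rcc1, Ckap5 and Wdr62 act on chromosomes or the spindle, and none of them is on the mitosis list used below. Rcc1, on chr4:132331919-132353605, codes for the chromatin-bound exchange factor of the small GTPase Ran, which guides nuclear transport and spindle assembly. Its level was 30.0 and 33.3 CPM in Naive, 47.9, 40.6, 39.3, 42.1 and 33.4 CPM in Ag and 218, 237, 216, 139.9 and 198 CPM in Ag+Costim. The Naive libraries were the lowest, the Ag libraries began just above them, and the lowest Ag+Costim library was 2.92 times the highest Ag library. Ckap5, on chr2:91526762-91620664, codes for a microtubule polymerase, with 44.7 and 49.2 CPM in Naive and 55.1, 42.7, 32.9, 52.7 and 39.4 CPM in Ag. The Naive values fell inside the Ag range, while Ag+Costim held 181, 264, 197, 166 and 191 CPM. Wdr62, on chr7:30240138-30280419, codes for a spindle pole protein. It was at 8.0 and 8.79 CPM in Naive, 5.83, 6.53, 4.53, 8.0 and 5.67 CPM in Ag and 37.0, 57.4, 51.8, 36.4 and 51.0 CPM in Ag+Costim. Here each Ag library was below both Naive libraries, Ag 4 only marginally, and the lowest Ag+Costim library was 4.15 times the highest Naive library.

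Enzymes of sterol synthesis formed a pair. Idi1, on chr13:8885501-8892451, interconverts the isoprenoid building blocks from which sterols are built, and Sqle, on chr15:59315077-59331192, adds oxygen to squalene in a rate-setting step towards cholesterol. Idi1 was at 16.1 and 19.2 CPM in Naive, 19.2, 17.7, 19.9, 20.8 and 17.9 CPM in Ag and 91.8, 88.1, 85.0, 66.3 and 69.0 CPM in Ag+Costim. The Ag libraries covered a narrow band, with a standard deviation of 1.33 CPM, that contained the upper Naive value. Sqle was at 17.5 and 22.5 CPM in Naive, 13.4, 12.7, 17.1, 28.6 and 19.2 CPM in Ag and 86.3, 92.6, 105, 72.8 and 85.5 CPM in Ag+Costim. Ag 4 was the highest Ag library for Sqle, above both Naive libraries, and was still far below every Ag+Costim library.

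Bhlhe40 and Adam8 are known from leukocytes. Bhlhe40, on chr6:108660629-108666925, codes for a basic helix-loop-helix transcription factor that T cells use for cytokine production. It was at 10.4 and 14 CPM in Naive and 10.6, 10.4, 6.50, 14.6 and 5.13 CPM in Ag. In Ag+Costim it was 133, 208, 147, 57.4 and 82.0 CPM, a 3.62-fold range between replicates, with Ag+Costim 4 lowest and Ag+Costim 2 highest. The ratio of the Ag+Costim mean to the Naive mean was 10.3.

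Adam8, on chr7:139978932-139992562, codes for a membrane metalloprotease of leukocytes. It was at 1.98 and 1.25 CPM in Naive, 1.02, 0.90, 1.84, 7.25 and 1.01 CPM in Ag and 27.6, 36.4, 36.2, 10.3 and 17.4 CPM in Ag+Costim. The library Ag 4 was the highest by far among the Ag libraries, and without it the Ag mean fell from 2.40 to 1.19 CPM and the ratio of Ag+Costim to Ag went from 10.6 to 21.5. The lowest Ag+Costim library was 1.42 times Ag 4, the narrowest gap among the 27 genes.

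Ag 4 was the highest Ag library in 18 of the 27 genes (66.7%), against 32.0% of the 8121 genes with at least 10 CPM in Ag+Costim. It had the lowest total count of the series. Within Ag+Costim, library 4 was lowest in 17 genes (63.0%, against 36.6% of the 8121) and library 2 highest in 13 (48.1%, against 29.0%). The part of library depth or composition in these differences was not tested.

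Arsb, H2-Q10 and Slc16a3 code for an enzyme, a histocompatibility molecule and a transporter. Arsb, on chr13:93771630-93943016, codes for the lysosomal enzyme arylsulfatase B, which degrades sulfated glycosaminoglycans. Its level was 24.4 and 20.2 CPM in Naive, 16.4, 21.3, 14.1, 29.1 and 16.9 CPM in Ag and 124, 158, 154, 157 and 160.5 CPM in Ag+Costim. After costimulation 4 libraries lay within 153.6 to 160.5 CPM, and Ag+Costim 1 was lower. H2-Q10, on chr17:35470089-35474563, codes for a non-classical class I major histocompatibility molecule best known as a secreted product of the liver. It had 18.0 and 19.9 CPM in Naive, 23.3, 16.9, 12.7, 52.7 and 12.5 CPM in Ag and 109.7, 139.8, 119.8, 111 and 176 CPM in Ag+Costim. Of its transcript sequence, 8.01% of 100-base windows also occur in other class I genes such as H2-K1, H2-Q7 and H2-T22, so its counts are uncertain where reads could be split among them. Slc16a3, on chr11:120948480-120960868, codes for a lactate exporter of glycolytic cells and was at 2.12 and 2.81 CPM in Naive, 2.96, 2.85, 3.35, 1.42 and 3.92 CPM in Ag and 11.9, 18.6, 16.9, 10.9 and 22.3 CPM in Ag+Costim. Ag 4 was the lowest Ag library for this gene.

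Fkbp5 and Clic4 had Ag+Costim means over 100 CPM. Fkbp5, on chr17:28399094-28517527, codes for a partner of the chaperone HSP90 and is a known target of glucocorticoids. It had 46.8 and 42.1 CPM in Naive, 34.8, 43.7, 27.6, 53.2 and 24.8 CPM in Ag and 223, 242, 176, 101 and 188 CPM in Ag+Costim. Ag+Costim 4 was lowest here too, at 1.9 times the highest Ag library. Clic4, on chr4:135213969-135272814, codes for a chloride intracellular channel protein and had 19.3 and 26.4 CPM in Naive, 26.9, 31.4, 25.2, 50.8 and 33.7 CPM in Ag and 128, 189, 195, 145 and 152 CPM in Ag+Costim. Its Ag mean was 1.47 times the Naive mean, just under the limit of 1.5.

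Tbc1d2, on chr4:46604390-46650209, codes for a GTPase-activating protein of Rab7 in endosome traffic, and its Ag+Costim mean was 15.4 times the larger of the other means, the highest such ratio with all libraries kept. Adam8 had a larger ratio to Naive alone, at 15.8. The levels of Tbc1d2 were 1.24 and 0.54 CPM in Naive, 0.59, 1.39, 0.42, 1.87 and 0.16 CPM in Ag and 10.7, 12.6, 14.8, 10.2 and 20.4 CPM in Ag+Costim. The lowest Ag value rests on 7 counts, and 3 counts correspond to 0.0609 to 0.125 CPM per library, so the size of the ratio is imprecise. Myo5a, on chr9:75071015-75223688, codes for the cargo motor myosin Va. It was at 3.85 to 4.41 CPM in Naive, 2.67 to 5.87 CPM in Ag and 16.0 to 27.2 CPM in Ag+Costim. Rap1gap2, on chr11:74383356-74610915, codes for a GTPase-activating protein of Rap1, a switch of integrin adhesion. Its range was 7.09 to 7.59 CPM in Naive, 4.61 to 10.9 CPM in Ag and 29.7 to 45.1 CPM in Ag+Costim.

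Palm, Kctd17 and Tgm2 were lower in level. Palm codes for paralemmin, a lipid-anchored protein of the plasma membrane, and had means of 4.32 ± 1.99 CPM in Naive, 3.05 ± 1.35 CPM in Ag and 22.3 ± 5.41 CPM in Ag+Costim. Kctd17, an adaptor of cullin ubiquitin ligases, had an Ag mean of 1.683 ± 0.30 CPM against 2.40 ± 0.12 CPM in Naive and 12.3 ± 1.54 CPM in Ag+Costim. Tgm2 codes for a transglutaminase that crosslinks proteins and varied widely, from 5.23 to 19.7 CPM in Ag+Costim against 0.96 to 3.57 CPM in Ag. Its lowest Ag+Costim library was 1.47 times the highest Ag library.

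Transcription factors were Hic1 and Arid3a besides Bhlhe40. Hic1, on chr11:75164565-75169519, codes for a zinc finger repressor and was at 1.82 and 1.11 CPM in Naive, 0.50, 0.27, 1.62, 2.62 and 1.196 CPM in Ag and 8.60, 15.9, 16.1, 11.3 and 15.0 CPM in Ag+Costim. Without Ag 4 its Ag mean fell from 1.24 to 0.90 CPM, and the Ag to Naive ratio left the allowed range at 0.61. Arid3a, which binds AT-rich DNA, had means of 2.83 ± 0.0042 CPM in Naive, 2.03 ± 0.35 CPM in Ag and 12.1 ± 2.69 CPM in Ag+Costim, and each Ag library was below both Naive libraries.

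Levels per transcript length, as FPKM summed over the transcripts of a gene, gave an order with some changes. After costimulation Mcm4 led with 169.8 ± 23.2 (SD, n = 5), followed by Rcc1 with 89.1 ± 16.5 (SD, n = 5), by H2-Q10 with 79.2 ± 17.0 (SD, n = 5) and then by Fkbp5 with 52.8 ± 15.3 (SD, n = 5). Bhlhe40 had 40.2 ± 18.7 (SD, n = 5), which differed from Fkbp5 by less than either SD. The lowest was Arid3a with 2.26 ± 0.51 (SD, n = 5). All levels in this order are FPKM means over the 5 Ag+Costim libraries.

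Near the 4-fold limit, the ratios ran on without a gap. The members just inside were Mcm4 at 4.05, Xrcc2 at 4.08 and Fkbp5 at 4.19, and the genes just outside that met the other criteria were Ipo5 at 3.99, Axl at 3.96 and Nefh at 3.94. Ipo5, an import receptor of the nucleus, had means of 51.8 CPM in Naive, 39.1 CPM in Ag and 206 CPM in Ag+Costim.

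**Figure D3:**
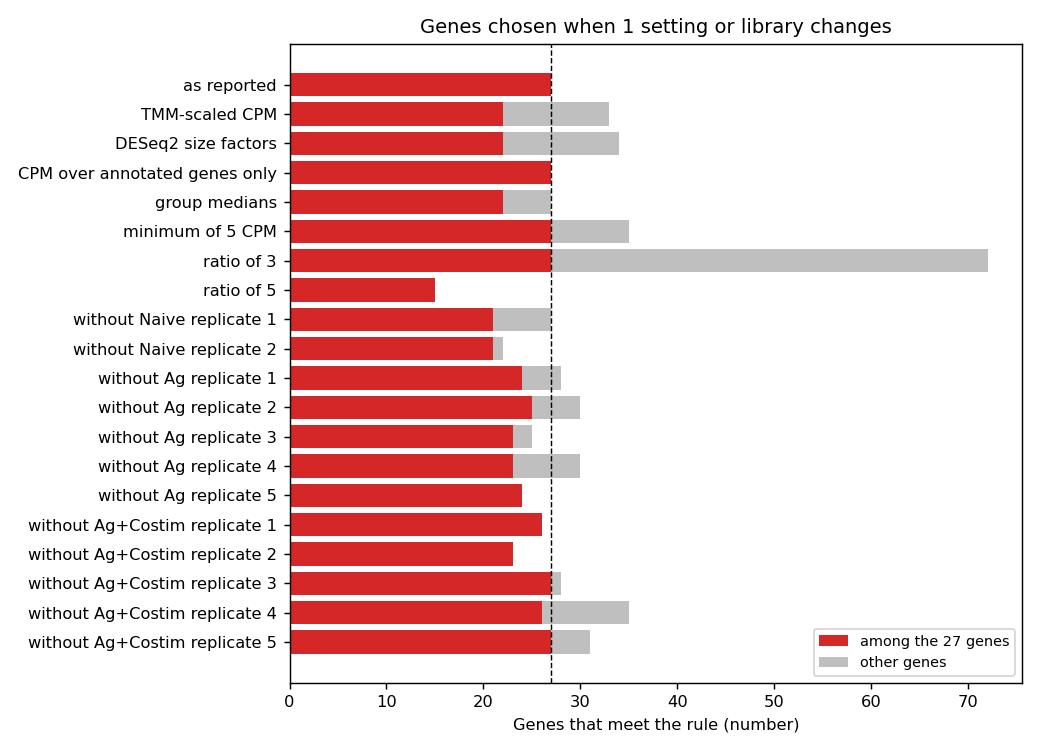
Number of genes that met the rule (horizontal axis) when 1 setting was changed or 1 library left out, split into those among the 27 genes (red) and others (grey), with a dashed line at 27. Leaving out a single library gave 22 to 35 genes, of which 21 to 27 were among the 27, and a ratio of 3 in place of 4 gave 72.

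The list depended on how the libraries were scaled and on single libraries. With TMM scaling or DESeq2 size factors, 22 of the 27 genes stayed, and Adam8, Clic4, Mcm4 and Pole were among those that left. In the 12 choices that left out 1 library in turn, 12 genes were chosen every time, namely Arid3a, Arsb, Bhlhe40, H2-Q10, Idi1, Myo5a, Polq, Rap1gap2, Rcc1, Rfwd3, Slc16a3 and Wdr62. Without Ag 4, 23 of the 27 stayed among 30 genes, and Fancb, Hic1, Mcm4 and Palm left. The Ag+Costim mean of Mcm4 was then 3.99 times the Ag mean.

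Of the 27 genes, 8 were on lists of pathway genes, and 19 were on none. Mcm4, Pole and Polq were on the list of 81 replication genes, Idi1 and Sqle among 27 sterol and lipid genes, Bhlhe40 among 58 effector genes and Slc16a3 among 23 glycolysis genes. No member was among 103 mitosis genes, 47 genes of cytokine signalling or 41 of the tumour necrosis factor receptor and NF-kB pathway. The other genes of these lists were tested with edgeR's quasi-likelihood test on counts, two-sided, with Benjamini-Hochberg adjustment over 18817 genes and a threshold of 0.05. In Ag+Costim against Ag, the share of all genes that was called higher was 26.6%, and 26.5% were called lower. Between Ag and Naive these shares were 24.2% and 22.5%, or 4559 and 4233 genes, and without Naive 2 the calls fell to 2906 and 2807 of 20007 genes. The contrasts share the Ag libraries. The median log2 change of all genes was -0.05 for Ag+Costim against Ag, and -0.24 with upper-quartile scaling, under which 4056 genes were called higher and 6338 lower against 5006 and 4979.

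Replication genes other than the members were higher after costimulation almost without exception, with 75 of 78 called higher and 0 lower, and a median log2 change of 1.58. In Ag against Naive, 66 were called higher and 4 lower, with a median of 1.79. The other subunits of the helicase of Mcm4 were all called in both contrasts. Mcm2 had means of 85.9 CPM in Naive, 132 CPM in Ag and 663 CPM in Ag+Costim, and Mcm7 had 130.2, 187 and 576 CPM. Mcm5 showed the widest step from Naive to Ag, at 66.8 and 209.6 CPM, and reached 925 CPM in Ag+Costim. Mcm4, with a ratio of Ag to Naive of 1.398 in mean CPM, was thus close to Mcm2 and Mcm7 in these means. The Ag to Naive log2 changes of Mcm2 and Mcm7 in the edgeR fit were 0.79 and 0.69. They are on TMM-scaled counts and not on the scale of the CPM ratio of Mcm4. Rrm2, the small subunit of ribonucleotide reductase, had 18.3 CPM in Naive, 371 CPM in Ag and 1508 CPM in Ag+Costim, with a log2 change of 2.07 ± 0.18 (SE, 5 against 5 libraries, edgeR adjusted p = 4.81e-07) for the second step. Mcm6 had the next highest level, with 1160 CPM in Ag+Costim and a log2 change of 1.53 ± 0.11 against Ag. Pole2, the second subunit of polymerase epsilon, had 23.9 CPM in Naive, 29.3 CPM in Ag and 62.3 CPM in Ag+Costim, a smaller step than that of Pole.

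Sterol and lipid genes were mostly higher after costimulation and split in direction between Naive and Ag. Of 25 tested besides the members, 18 passed as higher after costimulation and 2 as lower, with a median log2 change of 1.11, while in Ag against Naive 9 were called higher and 8 lower, with a median of 0.05. Without Naive 1 that last balance turned to 5 higher and 7 lower, with a median of -0.03. Fasn, which builds fatty acids, had the highest Ag+Costim mean of those called higher, at 201 CPM, with 17.1 CPM in Ag and 90.0 CPM in Naive, and was called lower in Ag than Naive. Srebf2, the transcription factor of the pathway, was likewise lower in Ag, at 48.7 CPM, than in Naive, at 127 CPM, and stood at 167 CPM in Ag+Costim.

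**Figure D4:**
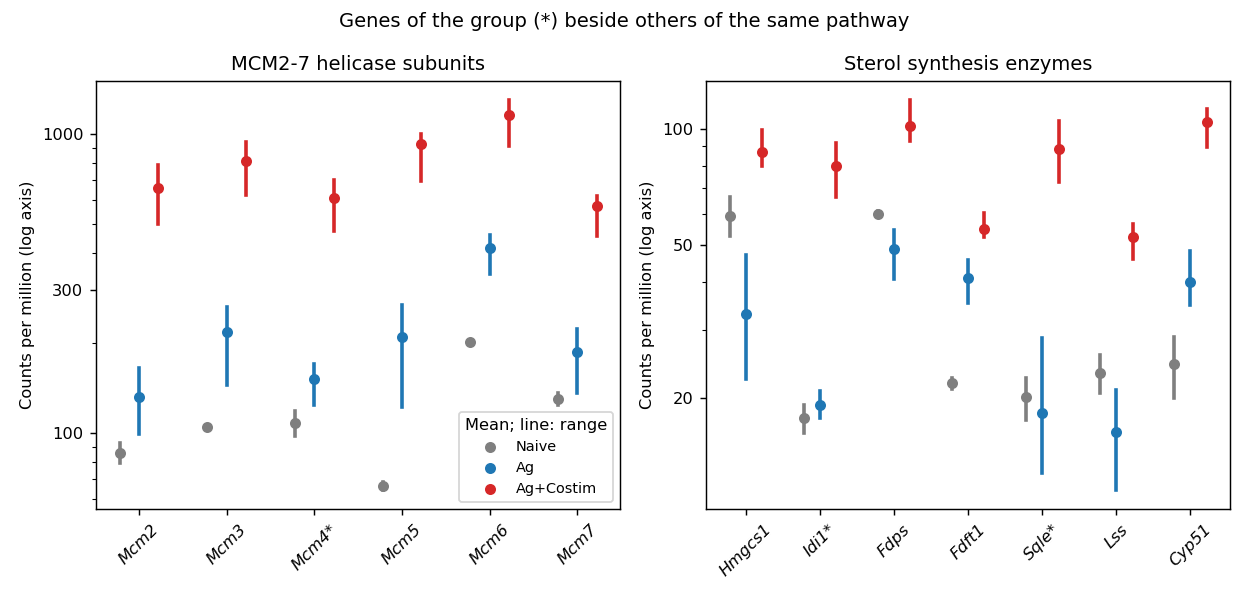
CPM (log axis) of the 6 subunits of the MCM2-7 helicase and of 7 enzymes of sterol synthesis in Naive (grey), Ag (blue) and Ag+Costim (red), with a dot at the group mean and a line over the range of the libraries, and an asterisk at Mcm4, Idi1 and Sqle. Ag+Costim means are the highest for every gene shown, and for Idi1 and Sqle the Ag and Naive ranges overlap.

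Mitosis genes rose at both steps. In Ag+Costim against Ag, 98 of 103 were called higher and 2 lower, and in Ag against Naive 99 were called higher and 0 lower, with a median log2 change of 3.74. Tubb5 and Tubb4b, tubulin subunits, had the highest Ag+Costim levels of those called higher, at 752 and 727 CPM, with log2 changes of 1.61 ± 0.14 and 1.48 ± 0.13 against Ag. Neither was called in Ag against Naive. Effector genes other than members were called higher in 31 and lower in 11 of 56 in Ag+Costim against Ag. Itgb1, the integrin beta 1 chain, had 1684 CPM in Ag+Costim against 765 CPM in Ag and 102 CPM in Naive. Lgals1, a galectin of activated T cells, changed less, by a log2 value of 0.35 ± 0.10. Glycolysis genes were called higher in 18 and lower in 3 of 22, with Ldha at 2883 CPM and Eno1 at 2424 CPM in Ag+Costim.

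Cytokine signalling genes were called higher in 23 and lower in 12 of 47 in Ag+Costim against Ag, and in 9 and 25 in Ag against Naive. Il2rb, a receptor chain for interleukin 2 and interleukin 15, had 397 CPM in Naive, 335 CPM in Ag and 1273 CPM in Ag+Costim, so that its profile resembled that of the 27 genes at a ratio under 4. Jak1 was called higher in Ag+Costim than Ag, at 1006 and 638 CPM, and was highest in Naive at 1508 CPM. In the tumour necrosis factor receptor and NF-kB list, to which the targeted receptors belong, 8 were called higher and 17 lower of 41, and 16 higher and 9 lower in Ag against Naive. Tnfrsf1b and Nfkb2 had the highest Ag+Costim levels among those called higher, at 204 and 122 CPM. The Ag+Costim libraries of Nfkb2 spread from 56.0 to 199 CPM, the lowest being within its Ag range of 46.9 to 61.4 CPM.

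The composition of a gene's transcripts was not part of the rule, although it comes from the same libraries and contrast. The deposited counts per transcript were divided by annotated type, since an annotation holds coding transcripts, transcripts with a retained intron and transcripts marked for nonsense-mediated decay. In 6 of the 27 genes every Ag+Costim library had a larger share of counts on coding transcripts than every Ag library (Adam8, Bhlhe40, Ckap5, H2-Q10, Pole and Wdr62), and in 3 every one had a smaller share (Kctd17, Rap1gap2 and Xrcc2). Among 8107 genes with at least 10 CPM in Ag+Costim the same shares were 11.5% and 1.67%. With edgeR's test of transcript usage, 5 of 17 members with at least 2 tested transcripts were called, namely Pole, Wdr62, Rap1gap2, Adam8 and Ckap5, where 4.27% of 7967 genes were called. As the contrast is the one that chose the genes, the calls are given as a description. The filter also let in transcripts counted in only 1 of the groups, such as Wdr62-201 and Rap1gap2-203, with a mean count of 0 in Ag. For genes chosen as high in Ag+Costim, the share called is therefore not a like comparison with that of all genes.

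Adam8 had the largest difference. Its coding share was 0% in both Naive libraries, 0 to 23.8% in Ag and 93.2% to 98.6% in Ag+Costim. The retained-intron transcript Adam8-203 held 63.2% to 100% of the counts in Ag and 0.2% to 2.1% in Ag+Costim, and its mean count was 59.4 per Ag library and 9.8 per Ag+Costim library. Coding transcripts of Adam8 alone were at 0, 0.045, 0.44, 0.79 and 0.070 CPM in the 5 Ag libraries and at 10.1 to 34.5 CPM in Ag+Costim. The 5 Ag libraries together held 44 counts on them and the 2 Naive libraries 0, so the mean of 0.27 CPM in Ag against 24.3 CPM in Ag+Costim rests on few counts on the low side. The gene level in Ag 4, which stood out above, was likewise mostly not on coding transcripts, with a coding share of 10.9%. The transcript usage call for Adam8 was lost without Ag+Costim 4 or Ag+Costim 5.

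Wdr62 was on a transcript marked for nonsense-mediated decay, Wdr62-205, in 83.2% to 97.9% of its counts in Ag and 0 to 58.5% in Ag+Costim. The full-length coding transcript Wdr62-201 had 0 counts in every Ag library and 30.6% to 86.1% of the counts in Ag+Costim. Coding shares were 6.72%, 14.1%, 0%, 2.08% and 0% in Ag and 40.3%, 63.5%, 98.2%, 98.7% and 53.0% in Ag+Costim. The Naive libraries, at 31.0% and 49.7%, lay above every Ag library and overlapped the Ag+Costim range. Coding transcripts of Wdr62 alone had means of 3.43 ± 1.33 CPM in Naive, 0.30 ± 0.38 CPM in Ag and 33.0 ± 13.3 CPM in Ag+Costim. On these transcripts the Ag mean was thus not close to the Naive mean, and it rests on 63 counts over the Ag libraries. Wdr62-201 and Wdr62-205 are of nearly the same length, 4742 and 4768 bases, and how StringTie split the counts between them was not tested.

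Pole had 77.9% to 92.9% of its counts on coding transcripts in Ag and 96.9% to 98.5% in Ag+Costim, with Naive at 93.5% and 97.5%. Retained-intron transcripts held most of the rest, among them Pole-206 with 0 to 14.9% in Ag and 0.2% to 0.3% in Ag+Costim. In Ckap5 the retained-intron transcript Ckap5-208 held 1.9% to 14.8% in Ag and 0.3% to 0.8% in Ag+Costim. The call for Ckap5 was lost without Ag 4 or without Ag+Costim 3, a library in which the coding transcript Ckap5-202 took 93.4% of the counts. H2-Q10 was not called, yet its coding share was at most 27.8% in Naive, between 45.1% and 81.3% in Ag and between 83.8% and 85.8% in Ag+Costim. Its coding transcripts alone had means of 4.05 ± 1.36 CPM in Naive, 16.2 ± 15.5 CPM in Ag and 111 ± 23.9 CPM in Ag+Costim. The closeness of the Ag and Naive means of H2-Q10 thus held for the gene total and not for its coding transcripts. Rap1gap2 went the other way, with a non-coding processed transcript, Rap1gap2-203, at 0% in every Ag library and 3.1% to 37.9% in Ag+Costim. Polq spread too widely to be read, with coding shares of 0 to 72.6% in Ag.

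Over all genes, retained-intron transcripts held 4.14% to 5.96% of the counts in the Ag libraries and 3.33% to 3.80% in the Ag+Costim libraries, with 7.45% and 7.87% in Naive. The share of genes whose coding share was at least 10 percentage points higher in Ag+Costim was 7.85% of 8107. Among the members it was 5 genes of 27, Adam8, Wdr62, H2-Q10, Pole and Polq, the last with the wide spread given above. In the other direction, the mean coding share differed by -20.1 points in Rap1gap2 and by -13.5 points in Kctd17. The share of all genes with a fall of that size was not counted.

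**Figure D5:**
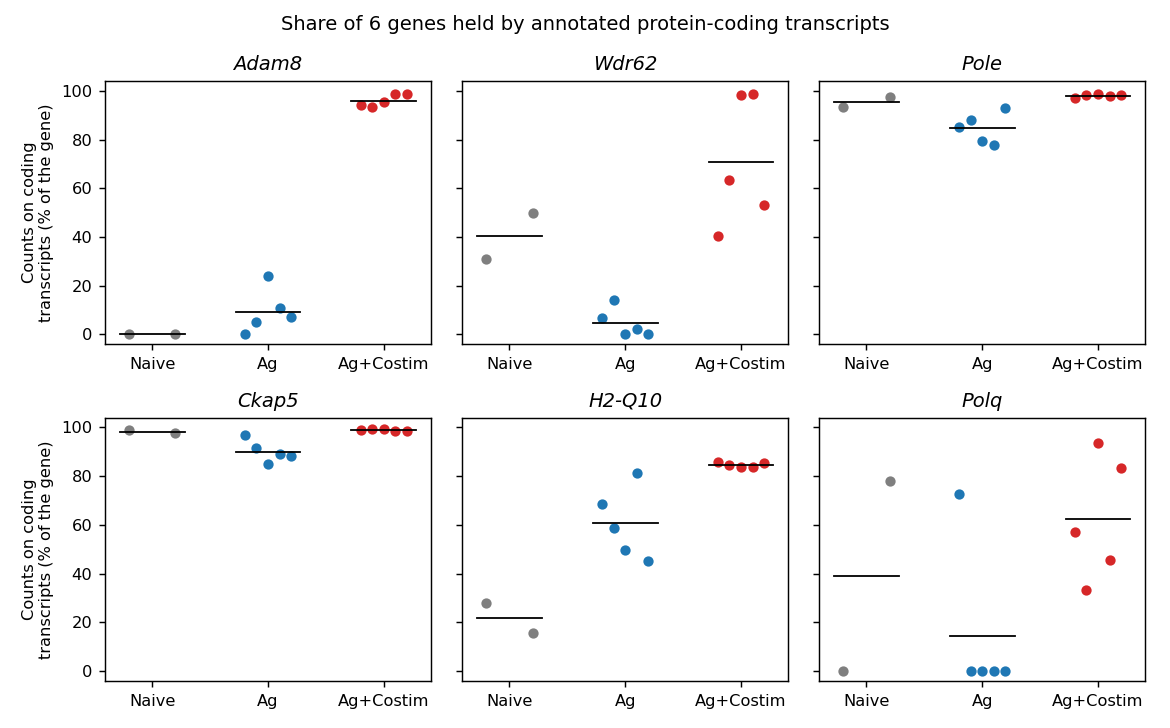
Percent of a gene's counts on annotated protein-coding transcripts (vertical axis), 1 dot per library and a line at the group mean, for 6 of the 27 genes in Naive, Ag and Ag+Costim. Adam8 lies at 0 to 23.8% in Ag and at 93.2% or more in Ag+Costim, the means of Pole and Ckap5 differ by 13.3 and 8.93 points, and the Polq libraries overlap.

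The genes lie on 14 chromosomes, and the median length of their longest coding transcript was 3858 bases, against 3002 bases for the 8121 genes with at least 10 CPM. Of the 27 genes 12 overlap another annotated gene, and the library kit does not keep strand, so reads in shared bases cannot be told apart. In 20 genes no 100-base window of a transcript occurs in another gene. Besides H2-Q10, over 5% of windows were shared in Idi1 (15.8%, with Gm13502 and Gm35570) and Rfwd3 (15%, with Gm5903). Their counts are uncertain to that extent. Small shares were found in others, such as Rcc1 (0.234%), Clic4 (0.289%) and Pole (0.176%).

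Promoter sequences of 18 of the 27 genes were found in the RefSeq table for GRCm38.p6, from 250 bases before to 50 bases after each start, 23 promoters in all. Motifs were searched by letters on both strands. The CCAAT box, the site of the factor NF-Y, was in 52.2% of member promoters and 37.4% of all 32851. The cell cycle homology region (TTTGAA), an element of late cell cycle promoters, was in 21.7% and 17.9%. The E2F motif, searched in 4 spellings (TTTCCCGC, TTTCGCGC, TTTGCCGC and TTTGGCGC), was in 8.70% and 2.27%, and both member promoters that held it belong to Wdr62. The AP-1 motif (TGANTCA), a site of early T cell activation, was in 0 of the member promoters and in 7.81% of all. Also searched were the E-box (CACGTG), the GAS motif (TTCNNNGAA) and the TATA box (TATAAA). Each of these was in 4.35% of member promoters, against 7.15%, 8.30% and 13.6% of all. Median base composition was 64.3% G and C against 52.7%. A match is a run of letters and not a bound site, and 23 promoters give shares with coarse steps. The promoters below were picked by name as those of a spindle protein called for transcript usage, a microtubule polymerase and a sterol enzyme. Those of Wdr62 and Ckap5 carry more than 1 kind of these elements, and that of Idi1 carries CCAAT boxes only. Clic4 and Rfwd3 also had both the CCAAT box and the cell cycle element and are not shown. Capitals mark CCAAT boxes on either strand (CCAAT or ATTGG), the E2F motif of Wdr62 and the cell cycle element of Ckap5 (TTCAAA, read on the other strand), and each runs 5′ to 3′ on the strand of the gene.
Wdr62, chr7:30280372-30280671, minus strand: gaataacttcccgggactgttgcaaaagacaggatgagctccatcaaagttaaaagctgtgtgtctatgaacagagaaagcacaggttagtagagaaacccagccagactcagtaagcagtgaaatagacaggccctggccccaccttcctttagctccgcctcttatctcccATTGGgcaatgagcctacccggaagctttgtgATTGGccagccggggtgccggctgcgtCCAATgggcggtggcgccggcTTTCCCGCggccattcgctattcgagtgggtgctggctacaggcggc
Ckap5, chr2:91526512-91526811, plus strand: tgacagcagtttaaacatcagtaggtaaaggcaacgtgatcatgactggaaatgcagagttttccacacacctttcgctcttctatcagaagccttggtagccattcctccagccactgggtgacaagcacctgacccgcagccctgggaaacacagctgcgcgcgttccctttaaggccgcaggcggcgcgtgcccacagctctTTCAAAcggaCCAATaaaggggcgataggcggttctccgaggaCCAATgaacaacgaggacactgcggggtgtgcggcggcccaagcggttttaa
Idi1, chr13:8885356-8885655, plus strand: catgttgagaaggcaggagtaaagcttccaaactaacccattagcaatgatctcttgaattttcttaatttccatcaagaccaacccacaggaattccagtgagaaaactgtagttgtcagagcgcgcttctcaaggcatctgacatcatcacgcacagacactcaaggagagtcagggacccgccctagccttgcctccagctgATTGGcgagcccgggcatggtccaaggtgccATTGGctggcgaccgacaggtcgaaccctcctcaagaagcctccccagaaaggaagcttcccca
In Wdr62 the E2F motif and the 3 CCAAT boxes lie in the part of the window nearest to the start, in Ckap5 both CCAAT boxes follow the cell cycle element, and Idi1 carries a pair of CCAAT boxes on the reverse strand. In their levels, the 3 genes had means of 46.7, 199.7 and 80.0 CPM in Ag+Costim.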

How the data were processed

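RNA was sequenced from 12 libraries of mouse OT-I CD8+ T cells, with groups taken from the labels: Naive (2), Ag (5) and Ag+Costim (5). Libraries were made with a SMART-Seq kit, which does not mark strand, and read as single reads of 100 bases. Alignment by the authors used HISAT2 2.1.0 on mm10, with SAMtools 1.9 and then StringTie 2.1.0 for quantification, per the submitters' processing notes, which also name R 4.0.5 and DESeq2 1.30.1. The counts per gene and per transcript were deposited as StringTie derives them from coverage, without normalization. FPKM values per transcript, also computed by the authors, were summed here per gene. A deposited table of splicing events holds 1 inclusion value per group and the authors' own comparison columns, and was not used, nor were the sheets of sample and lane annotation.

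Of 81881 gene entries, 55536 were matched to GENCODE vM21 (GRCm38). The other 26345 carry no gene name, hold at most 0.121% of a library, and count only in the CPM denominators. CPM is the count divided by the library total. The members, the pathway and marker lists and the tests were chosen with earlier results of these data known. List genes were tested with edgeR 4.0.16 (TMM, filterByExpr, robust quasi-likelihood fit with 1 term per group on all 12 libraries, Benjamini-Hochberg, threshold 0.05), and transcript usage with edgeR's diffSpliceDGE on the Ag and Ag+Costim libraries. DESeq2 1.42.0, limma 3.58.1, other scalings and thresholds, and leaving out each library were alternatives. The tests were checked on simulated data. In counts drawn for Ag+Costim against Ag, the gene test found 166 of 200 genes altered by a log2 value of 1. It called 10 others among 17592. The usage test found 136 of 200 altered by a log2 value of 2 and called 33 others among 7856. Among the calls of the usage test, those 33 are a larger share than the threshold of 0.05 allows. The counts were drawn with 1 fixed dispersion, so the share in the real data may differ.

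Named in the text are the 12 members with the highest Ag+Costim level, the 12 with the largest ratio, members on a list or called for transcript usage, the 3 genes on either side of the 4-fold threshold, and per list the 2 non-members called higher with the highest Ag+Costim level. Other members and the further subunits or enzymes of the pathways of Mcm4, Pole and Sqle were added after their values were seen. Counting floors (3 counts, 0.0609 to 0.125 CPM) cover counting error only. Shared sequence was found by comparing 100-base windows of the GENCODE transcripts. Figures used matplotlib 3.10.9, and tables R 4.3.3 and pandas 2.3.3 under Python 3.11.15. Values of 1 of the 27 members and of some list genes are not reported here one by one.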

Additional observations from a re-analysis of the deposited data

Results flagged for a closer look

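In 52 groups of 5 libraries (26 genes in Ag and in Ag+Costim), 4 held a library set apart from the other 4 by Dixon's criterion, which chance meets in about 1 of 20 groups. In Ag, library 4 was the high one in each case, with 52.7 CPM for H2-Q10 and 7.25 CPM for Adam8. In Ag+Costim, library 1 was low for Arsb at 124 CPM, and library 4 was low for Xrcc2 at 15.9 CPM. All 4 values lay on the side of their own group in the comparison of Ag with Ag+Costim.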

How the results depend on the processing

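The number of genes that met the rule was 27 in the report, 72 with a ratio of 3 and 15 with a ratio of 5, and 22 to 35 when each library was left out in turn. Other scalings, medians and a minimum of 5 CPM gave 27 to 35. Of 378 member ratios under other settings, 366 moved by less than 1 SD of the replicates, 12 moved further and 0 changed direction. The SD was that of the log2 levels over the 5 Ag+Costim libraries, so leaving out 1 of those could hardly move a ratio further. Leaving out a library of the group with the smaller of the Ag and Naive means often left the ratio as it was. Since the rule required ratios of at least 4, a change of direction was hardly possible either. Nothing is read from these counts. Transcript usage was called in 5 of 17 members in the report, where 4.27% of all genes were called. With a filter of 1 CPM it was called in 2 of 12, against 2.73% of all genes. Limma's diffSplice called 8 of 17 members and 23.3% of all genes, and the replicate block 5 of 17 and 3.7%. With 1 library left out, 4 to 6 of the 17 to 20 members tested were called, against 3.21% to 4.65% of all genes. The causes of these shifts were not tested.

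For each list, the larger of the counts called higher and lower was on the same side in every alternative, except for sterol genes in Ag against Naive (below). The DESeq2, filter and 2-group alternatives of Ag+Costim against Ag stayed within 1.5 times. Sterol genes called lower in Ag+Costim than Ag numbered 1 to 2 with 1 library left out. For Ag against Naive, where alternatives were added after the data had been seen, DESeq2 called 1 mitosis gene lower against 0. With 1 Naive library left out, which assumes that the lone library varies like the other groups, replication genes called lower numbered 1 to 2 against 4. Under the same change, cytokine signalling genes called higher numbered 4 against 9, and sterol genes called higher numbered 5 to 6 against 9 and lower 4 to 7 against 8. Without Naive 1 they were 5 higher and 7 lower, the reverse of the balance with all libraries, and without Naive 2 they were 6 and 4. Over all genes, Ag against Naive gave 3362 higher and 3085 lower without Naive 1, and 2906 and 2807 without Naive 2, against 4559 and 4233. Upper-quartile scaling moved the calls over all genes in Ag+Costim against Ag to 4056 higher and 6338 lower, from 5006 and 4979. Deviations of same-numbered Ag and Ag+Costim libraries correlated at 0.016 to 0.095. Differently numbered libraries were not compared, so whether the replicate numbers pair the libraries was not settled. With the replicate block 273 list genes were called higher and 49 lower, against 271 and 47, with 4706 and 4647 over all genes. Depth limits the lowest levels most, those of Tbc1d2, Hic1 and the coding transcripts of Adam8 and Wdr62 in Ag.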

Other observations

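Genes outside the 27 entered when the scaling changed. With TMM scaling 11 genes joined, namely Atad2, Atp10a, Axl, Ccp110, Fgl2, Ipo5, Ndc1, Prdm1, Thop1, Trim37 and Ube2s, and all of them met the rule with DESeq2 size factors too. Prdm1, named here after its values were seen, codes for BLIMP-1, a transcription factor of effector and terminally differentiated T cells. It had means of 1.402 CPM in Naive, 0.93 CPM in Ag and 16.7 CPM in Ag+Costim, and its libraries ranged from 0.65 to 1.42 CPM in Ag and from 12.9 to 22.1 CPM in Ag+Costim. These levels brought it to notice and are given as a description. It stayed outside the list because its Ag mean lay below the Naive mean by more than the allowed 1.5 times.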
